A study of Homo sapiens with 8 samples.

Results

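The genes of neutrophil granule proteins examined here were 10: MPO, ELANE, AZU1, PRTN3 and CTSG, whose products fill the primary granules made early, in promyelocytes, and LYZ, LTF, LCN2, CAMP and CEACAM8, taken here as the late group. They were chosen by name from 20052 protein-coding genes listed by RefSeq, and H3K27me3 peaks were counted within 5 kb and within 25 kb of each gene start. The cell line, MOLM14, derives from a human acute myeloid leukaemia and carries an internal tandem duplication in the FLT3 receptor gene. The comparison asks how FLT3 inhibition changes H3K27me3 at these genes. Cells were exposed for 24 h either to quizartinib (AC220), a FLT3 kinase inhibitor, or to the solvent DMSO alone, and Drosophila S2 cells were added to every sample before lysis. Chromatin was immunoprecipitated for H3K27me3, and 1 deposited list of broad peaks was used for each of the 4 libraries (DMSO 1, DMSO 2, AC220 1 and AC220 2). The other 4 samples of the series, input chromatin, were left out. The labels name 1 cell line and do not say whether libraries of a treatment came from separate cultures, so the spread between them may be technical. The lists hold no expression values, so the identity of the cells was not checked against marker genes.

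H3K27me3 is the trimethyl mark that Polycomb repressive complex PRC2 places on histone H3, and it lies in broad domains over genes that are kept silent. Granule proteins are made in waves as a myeloid precursor matures. The promyelocyte makes myeloperoxidase and the serine proteases of the primary granules. The myelocyte and metamyelocyte make lactoferrin, neutrophil gelatinase-associated lipocalin, the cathelicidin precursor and CEACAM8 (CD66b) of the secondary granules. Lysozyme is found in several granule types and is also a major product of monocytes.

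The promoters of 5 members are shown because peaks reached or approached the first 3 (LTF, LCN2 and CEACAM8) in at least some libraries and stayed away from the others (PRTN3 and CTSG) in all 4. Each runs 5′ to 3′ from 250 bases before the start to 50 after it, from RefSeq on GRCh38.p14, and capitals mark CpG dinucleotides, the sites around which PRC2 is known to gather when they are dense and unmethylated. The windows are chr3:46464856-46465155 on the minus strand for LTF, chr9:128149203-128149502 on the plus strand for LCN2 and chr19:42594875-42595174 on the minus strand for CEACAM8. Those of the early genes are chr19:840749-841048 on the plus strand for PRTN3 and chr14:24576201-24576500 on the minus strand for CTSG. These coordinates are of another build than the peaks and were not set against them.
LTF: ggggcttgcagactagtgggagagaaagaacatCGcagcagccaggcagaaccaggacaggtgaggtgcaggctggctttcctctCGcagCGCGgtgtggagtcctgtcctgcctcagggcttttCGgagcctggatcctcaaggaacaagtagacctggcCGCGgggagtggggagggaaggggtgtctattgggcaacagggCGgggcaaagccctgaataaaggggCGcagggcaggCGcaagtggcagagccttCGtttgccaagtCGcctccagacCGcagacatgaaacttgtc
LCN2: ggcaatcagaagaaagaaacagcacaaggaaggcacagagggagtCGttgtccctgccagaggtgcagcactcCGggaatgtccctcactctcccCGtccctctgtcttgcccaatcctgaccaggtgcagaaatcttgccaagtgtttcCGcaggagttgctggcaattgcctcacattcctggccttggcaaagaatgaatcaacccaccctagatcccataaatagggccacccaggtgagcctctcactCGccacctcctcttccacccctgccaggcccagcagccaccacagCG
CEACAM8: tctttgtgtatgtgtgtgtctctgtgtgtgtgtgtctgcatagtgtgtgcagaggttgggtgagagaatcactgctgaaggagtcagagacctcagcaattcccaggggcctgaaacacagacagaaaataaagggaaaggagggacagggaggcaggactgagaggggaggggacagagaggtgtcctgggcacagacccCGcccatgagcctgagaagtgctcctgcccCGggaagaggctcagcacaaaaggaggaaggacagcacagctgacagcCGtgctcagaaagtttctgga
PRTN3: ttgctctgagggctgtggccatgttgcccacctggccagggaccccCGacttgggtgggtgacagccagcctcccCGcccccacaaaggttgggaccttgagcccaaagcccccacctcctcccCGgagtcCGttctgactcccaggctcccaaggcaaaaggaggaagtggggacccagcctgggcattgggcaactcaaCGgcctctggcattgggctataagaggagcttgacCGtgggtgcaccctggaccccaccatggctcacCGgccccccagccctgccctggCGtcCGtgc
CTSG: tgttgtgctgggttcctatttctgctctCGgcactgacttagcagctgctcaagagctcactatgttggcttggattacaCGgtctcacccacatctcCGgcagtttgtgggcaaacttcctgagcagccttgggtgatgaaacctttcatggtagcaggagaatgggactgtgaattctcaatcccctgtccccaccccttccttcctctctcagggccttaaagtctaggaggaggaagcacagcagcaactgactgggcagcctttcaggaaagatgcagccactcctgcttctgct

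RefSeq promoter entries were matched for 7 members. None of these 7 reached the median CpG count of all promoters. LTF held 13 CpG, AZU1 and PRTN3 9 each, LCN2 6, CTSG and CEACAM8 3 each and CAMP 1, against a median of 14 over 35116 promoters of the same length. The most marked member, LTF, thus stood at the middle of all promoters (49.7% have as few), and CEACAM8, also marked, had the same count as the unmarked CTSG (24.5% have as few). GC content ran from 53% in CTSG to 66.7% in PRTN3, with a median of 58.7% over all promoters. The letters GAGGAAGT, the form of ETS site preferred by the myeloid factor PU.1, were found on either strand in PRTN3 and CAMP and in 2.59% of all promoters. Other motifs were counted too. The shorter GAGGAA was in PRTN3, CTSG, LTF, CAMP and CEACAM8 and in 27.9% of all promoters. TATAAA was in no matched member and in 11.5% of all promoters. RefSeq lists 3 starts for LTF, and the one printed lies 1759 kb from that of CAMP, the same distance to the kb as between the GRCh37 starts used for the peaks.

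The lists differed in length more between replicate numbers than between treatments. In replicate number 1, peaks covered 7.63% (DMSO) and 6.32% (AC220) of chromosomes 1 to 22 and X. In number 2 they covered 19.4% (DMSO) and 16.3% (AC220), so values are given within each replicate number. For each library, the covered share counts how many of 100 bases of a window fall inside a listed peak. Read depth is unknown, and a covered share cannot tell fewer cells carrying the mark from less mark per cell. As a background, the same measures were taken in every 10 kb and every 50 kb window tiled along these chromosomes. No window was masked, so stretches without assembled sequence count as free of peaks. This lowers the shares of windows with a peak and raises the ranks of covered members. It also raises the shares of windows without a peak and of window centres far from one.

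Between 2 and 4 of the 10 granule genes had a listed peak near their starts, by library and window. Within 5 kb, 2 of the 10 had a peak in DMSO 1 (24.5% of all 10 kb windows had one) and 2 in DMSO 2 (38.5%). With AC220 it was 3 of 10 in library 1 (22.6%) and 3 in library 2 (36.4%). LTF and CEACAM8 had one in all 4 lists (2 of 10, against 19.6% of windows), LCN2 had one in both AC220 lists, and the remaining 7 had none in any list (58.8% of windows). Within 25 kb the counts were 3 in DMSO 1 (41% of all 50 kb windows), 3 in AC220 1 (39%), 4 in DMSO 2 (55.9%) and 4 in AC220 2 (54.2%). In this window LTF, LCN2 and CEACAM8 had a peak in all 4 lists (3 of 10, against 36.1% of windows). The wider window added LCN2 in the DMSO lists and CAMP in the lists numbered 2. The shares of members with a peak were below or near the shares of all windows, except within 5 kb in AC220 1 (3 of 10 against 22.6%). The members were not called different from the genome on this ground.

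**Figure D1:**
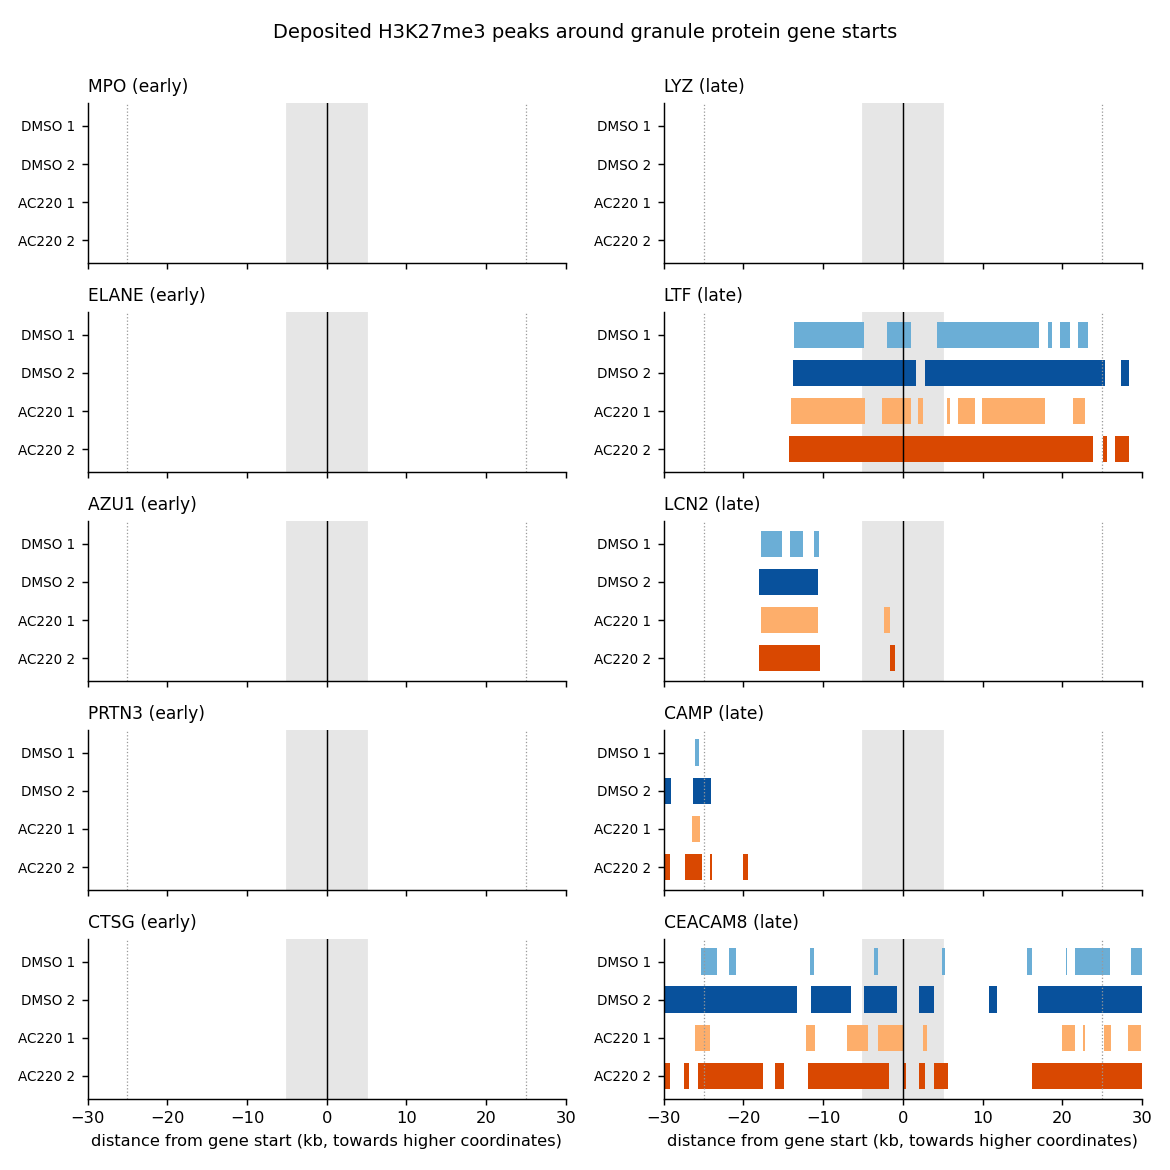
Deposited H3K27me3 peaks (bars) of the 4 libraries within 30 kb of each gene start, by distance in kb towards higher coordinates; the grey band marks 5 kb and the dotted lines 25 kb on either side. The panels of MPO, ELANE, AZU1, PRTN3, CTSG and LYZ are empty, while LTF, LCN2 and CEACAM8 hold peaks in every library.

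All 5 early granule genes were free of listed peaks within 25 kb in all 4 libraries. MPO encodes myeloperoxidase, the haem enzyme that makes hypochlorous acid, and its window (chromosome 17, 56333001 to 56383000, GRCh37, band 17q22) had a covered share of 0% in every list. The nearest peak lay 99.6 kb away in DMSO 1, 98.8 kb in DMSO 2, 98.5 kb in AC220 1 and 98.5 kb in AC220 2. Its peak-free stretch ended within 1076 bp on this side in the 4 lists and within 5191 bp on the other, and over all 4 together it measured 207 kb (56259508 to 56466125). CTSG, the gene of the serine protease cathepsin G, had its nearest peak at 137 kb in DMSO 1 and AC220 1, and at 65.5 kb in DMSO 2 and 63.3 kb in AC220 2. Thus CTSG had a closer peak in the longer lists than in the shorter ones. On the other side of CTSG the first peak began within a range of 340 bp on chromosome 14 in the 4 lists (25181698 in DMSO 2 to 25182038 in AC220 2). In the RefSeq gene order CTSG stands beside CMA1 and the granzyme genes GZMH and GZMB, relatives of the same protease family.

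AZU1, PRTN3 and ELANE, which encode azurocidin, proteinase 3 and neutrophil elastase, form 1 cluster in band 19p13.3, with starts 13 kb and 11 kb apart, so that their 25 kb windows overlap and are not separate observations. The cluster lay in a peak-free stretch of 131 kb in DMSO 1, 133 kb in DMSO 2, 133 kb in AC220 1 and 132 kb in AC220 2. Over all 4 lists it ran 130 kb, from 784925 to 915204 on chromosome 19. Its lower edge varied over 1554 bp and its upper edge over 1369 bp between lists. CFD, the gene of complement factor D, from a list of other granule genes, stood next to the cluster in the RefSeq order, directly after ELANE, and EPX, the gene of eosinophil peroxidase, stood near MPO. Neither was placed against the peaks, as their positions in the build of the files were not used here.

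The nearest peak on the higher side of the cluster was a strong one. The first peak above ELANE began 64.3 kb away in DMSO 1, 64.1 kb in DMSO 2, 64.6 kb in AC220 1 and 63.2 kb in AC220 2. By the authors' q it ranked 34th of 105063 peaks in DMSO 1, 14th of 117708 in DMSO 2, 10th of 104660 in AC220 1 and 13th of 139812 in AC220 2. Its deposited fold enrichment was 5.17 in DMSO 1 (the median peak of that list had 2.85), 4.96 in DMSO 2 (2.1), 5.14 in AC220 1 (2.67) and 5.28 in AC220 2 (2.13). The peak was 4.84 to 6.49 kb wide and spanned 916262 to 921454 on chromosome 19 in DMSO 1. This peak, among the strongest of each list, lay 63.2 to 64.6 kb from ELANE and 87.2 to 88.6 kb from AZU1.

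Being this far from a peak was not rare. Of all 50 kb windows, 41.5% had no peak in any of the 4 lists. In the members' own bands this share was 52.7% of the 148 windows of 17q22 (MPO), 43.5% of the 138 of 19p13.3 (the cluster of AZU1, PRTN3 and ELANE) and 50.6% of the 174 of 14q12 (CTSG). Measured from the centres of 10 kb windows, 21.9% lay as far from any listed peak as MPO or farther, and for AZU1 this was 34%, for PRTN3 30.1%, for ELANE 28.3% and for CTSG 28.3%. As no window was masked, stretches without assembled sequence raise these shares over all windows and centres. The 5 early genes stood in 3 separate stretches.

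**Figure D2:**
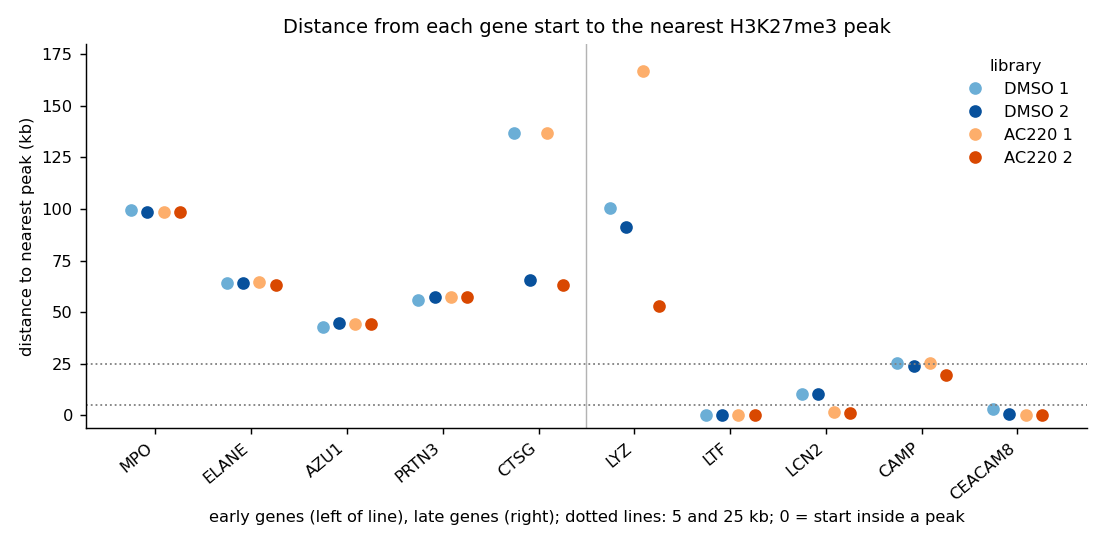
Distance in kb from each gene start to the nearest deposited H3K27me3 peak in each of the 4 libraries, with 0 for a start inside a peak. The early genes lie between 43.1 kb (AZU1, DMSO 1) and 137 kb (CTSG), and among late genes LYZ lies at 52.9 kb or more, CAMP at 19.5 to 25.6 kb and the other 3 within 10.6 kb.

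Of the late group, LYZ and CAMP were without a peak within 5 kb in all 4 lists. LYZ encodes lysozyme, which cuts bacterial cell walls, and it resembled the early genes. Its window in 12q15 (chromosome 12, 69717001 to 69767000) was uncovered in all 4 lists, in a band where 31.6% of 76 windows were. The nearest peak lay 100.4 kb away in DMSO 1, 91.3 kb in DMSO 2, 167 kb in AC220 1 and 52.9 kb in AC220 2. CAMP encodes the precursor of the antimicrobial peptide LL-37. Its nearest peaks lay at the limit of the window: 25.6 kb away in DMSO 1, 24.1 kb in DMSO 2, 25.4 kb in AC220 1 and 19.5 kb in AC220 2. Its covered share within 25 kb was therefore 0% in the lists numbered 1, and 1.9% in DMSO 2 and 1.46% in AC220 2. With starts moved 1 kb lower, which takes in more of the same peaks, CAMP had a peak in all 4 lists.

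LTF, the gene of the iron-binding protein lactoferrin, was the most covered member within 25 kb in every library, with all deposited peaks counted. The share was 55% in DMSO 1, 75.3% in DMSO 2, 51% in AC220 1 and 76.4% in AC220 2 (chromosome 3, 46481001 to 46531000, band 3p21.31). Each library placed LTF high among all 50 kb windows: 97.4% of them were less covered in DMSO 1, 92.7% in DMSO 2, 97.8% in AC220 1 and 95.4% in AC220 2. The values grouped by replicate number and the treatments overlapped. DMSO averaged 65.1% ± 14.4 and AC220 63.7% ± 18 (SD, n = 2 each), a difference of -1.45 percentage points that is smaller than either SD (two-sided exact permutation p = 1). AC220 minus DMSO was -4.03 points within replicate number 1 and 1.13 points within number 2. The coverage in the lists numbered 1 was mostly lost under a stricter list. At a -log10 q of at least 2, LTF was at 0% in DMSO 1 and 22.9% in AC220 1 within 25 kb. Within 5 kb it was then at 0% and 36.15%. The most covered member of DMSO 1 within 25 kb was then CEACAM8, at 0.466%. In DMSO 2 and AC220 2 the shares of LTF stayed at 75.3% and 76.4%.

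The start of LTF lay inside a peak in all 4 lists, as did 4.18% of the centres of 10 kb windows. That peak was 3.01 kb wide in DMSO 1 (46503962 to 46506970), 15.5 kb in DMSO 2 (46492165 to 46507618), 3.62 kb in AC220 1 (46503437 to 46507051) and 38.2 kb in AC220 2 (46491653 to 46529871). It was stronger by the authors' q than 68.6%, 94%, 90.2% and 95.2% of the peaks of those lists, in the same order. Its higher end in DMSO 1 lay just under 1 kb above the start, and since starts were taken to the nearest kb, moving them 1 kb higher left LTF outside a peak in that list. Within 5 kb, number 1 gave 37.7% with DMSO and 45.4% with AC220, and number 2 gave 88.2% and 100%. AC220 was thus higher by 7.68 and 11.8 points within the numbers, with overlapping groups (62.9% ± 35.7 against 72.7% ± 38.6, SD, n = 2; two-sided exact permutation p = 0.667). With a 10 kb half-width the mean difference was -1.15 points.

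The domain over LTF had a sharp edge. LTF is transcribed towards lower coordinates, so the peaks ran into the gene. Below the start they stopped 13.7 kb beyond its start in DMSO 1, 13.8 kb in DMSO 2, 14.1 kb in AC220 1 and 14.3 kb in AC220 2, a range of 687 bp between lists. From that edge to 100 kb on the same side no list held a peak, whereas on the upstream side further peaks were listed in every library out to 100 kb. In DMSO 1 and AC220 1 these peaks were broken by many gaps. Among them was one from 23.3 to 32.1 kb in DMSO 1 and from 22.9 to 34.3 kb in AC220 1. Within 25 kb, 22.3 kb were covered in all 4 lists, which is 56.8% of the 39.3 kb covered in any. Bases covered in both AC220 lists alone came to 0.859 kb, and in both DMSO lists alone to 0 kb.

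**Figure D3:**
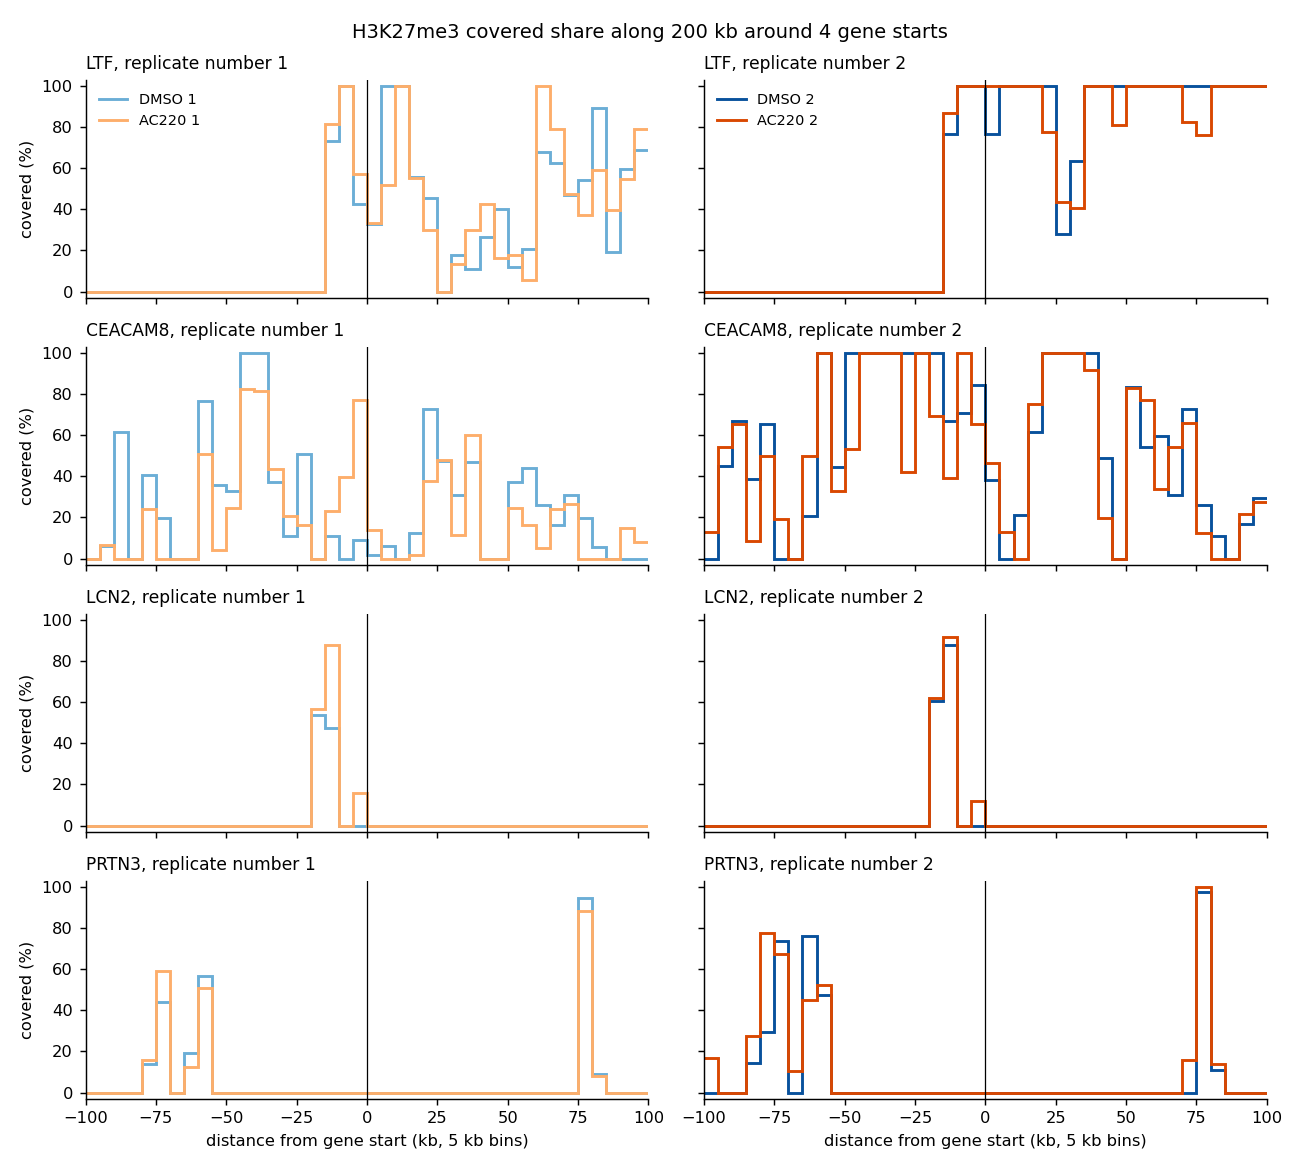
Covered share of 5 kb bins within 100 kb of the starts of LTF, CEACAM8, LCN2 and PRTN3, with DMSO and AC220 of replicate number 1 on the left and of number 2 on the right. The LTF domain ends about 14 kb below the start in all 4 libraries, LCN2 shows an isolated block, and PRTN3 lies between peaks that are 56.1 kb or more away.

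LCN2, the gene of the iron-siderophore binding lipocalin, had an isolated block of the mark upstream and, with AC220 alone, a small peak near the start. The block ran from 17.8 to 18.1 kb before the start to 10.4 to 10.6 kb before it in all 4 lists, and its edges varied by 273 and 183 bp. In DMSO 1 it was split into 3 peaks and in the other lists it was 1 peak, such as 130892978 to 130900401 on chromosome 9 in DMSO 2 (7.42 kb). Its deposited fold was close to that of the median peak: 2.03 in DMSO 2 and 2.16 in AC220 2, where the medians were 2.1 and 2.13. By q the block was stronger than 77.7% of the peaks of DMSO 2, 84.3% of AC220 2 and 78.5% of AC220 1, while the best of its 3 pieces in DMSO 1 was stronger than 51.7%. No other peak was listed within 100 kb in the DMSO lists.

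The near peaks of LCN2 were short and weak. In AC220 1 a peak of 0.789 kb lay at 130908591 to 130909379, and in AC220 2 one of 0.6 kb at 130909393 to 130909992, so that they lie between 2.41 and 1.01 kb before the start. They did not share a base and were 13 bp apart. The -log10 q was 1.02 in AC220 1, where 0.22% of the list was weaker, and 1.23 in AC220 2, where 16.4% was weaker. Both stand near the listing limit of 1, and neither passed a -log10 q of 2.

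LCN2 was the member whose covered share did not overlap between treatments in either window, but this was lost under stricter lists. Within 5 kb it was 0% in both DMSO lists, 7.89% in AC220 1 and 6% in AC220 2. Within 25 kb it was 10.1% in DMSO 1, 14.8% in DMSO 2, 16% in AC220 1 and 16.6% in AC220 2. The wider window holds the same near peaks, so the windows are not separate results. The upstream block by itself was 7.23 kb wide in AC220 1 and 7.42 kb in DMSO 2, so without the near peaks the groups overlapped. The means of the wider window were 12.5% ± 3.34 and 16.3% ± 0.363 (SD, n = 2 each), a difference larger than either SD. The exact permutation test gave p = 0.333 for both windows, the smallest two-sided p that 2 libraries against 2 allow, and an adjusted p of 1 over all windows with a peak. Groups that did not overlap, higher with AC220, were found in 0.503% of all 10 kb windows and 1.22% of those with a peak in any list, and in 0.412% and 0.703% of 50 kb windows. No member had groups that did not overlap with AC220 lower (10 kb windows: 1.34% of all and 3.25% of those with a peak; 50 kb windows: 0.753% and 1.29%). At a -log10 q of at least 2, LCN2 was at 0% within 5 kb in all 4 lists. Within 25 kb it was then at 0% in DMSO 1 and AC220 1, 14.8% in DMSO 2 and 15.4% in AC220 2, a difference of 0.254 points with overlapping groups (exact permutation p = 1). With all lists trimmed to the length of the shortest, LCN2 had no peak within 25 kb in DMSO 2 or AC220 2, and the groups overlapped in both windows (exact permutation p = 1).

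CEACAM8, a surface glycoprotein (CD66b) stored in secondary granules, lay in a broken domain whose form differed by library. Within 25 kb (chromosome 19, 43074001 to 43124000, band 19q13.2) the lists numbered 1 covered 16.4% (DMSO) and 21% (AC220), and those numbered 2 covered 64.3% (DMSO) and 60.8% (AC220). These values grouped by replicate number and not by treatment (40.4% ± 33.9 against 40.9% ± 28.2, SD, n = 2; two-sided exact permutation p = 1). With all lists trimmed to the length of the shortest, CEACAM8 no longer grouped by replicate number. Its share was then 6.77% in DMSO 1, 21% in AC220 1, 23.5% in DMSO 2 and 1.56% in AC220 2. Its band was the most covered of those that hold a member: 20.2% of its 94 windows were free of peaks in all 4 lists. In the RefSeq order CEACAM8 stands between CEACAM1 and the pregnancy-specific glycoprotein genes PSG3 and PSG8, of the same family.

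Near the start of CEACAM8 the libraries disagreed. Within 5 kb, number 1 gave 5.6% with DMSO and 45.3% with AC220, but number 2 gave 61.4% with DMSO and 56% with AC220, so AC220 minus DMSO was 39.7 points in number 1 and -5.39 points in number 2 (two-sided exact permutation p = 1). The start itself was inside a peak in both AC220 lists (43095824 to 43099185 and 43098982 to 43099436) and in neither DMSO list, as were 0.104% of the centres of 10 kb windows. The opposite pattern was found at no member start and at 0.407% of centres. That difference rests on the position taken: with starts moved 1 kb lower the start was covered in AC220 1 and DMSO 2, and with starts moved 1 kb higher in no list. The AC220 peaks over it were weak, with 22.6% of the list weaker in AC220 1 and 6.6% in AC220 2. Of 38.4 kb covered in any list within 25 kb, 1.83 kb (4.77%) were covered in all 4, against 56.8% for LTF and 54.7% for LCN2, and 14.2 kb were covered in both lists numbered 2 alone.

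**Figure D4:**
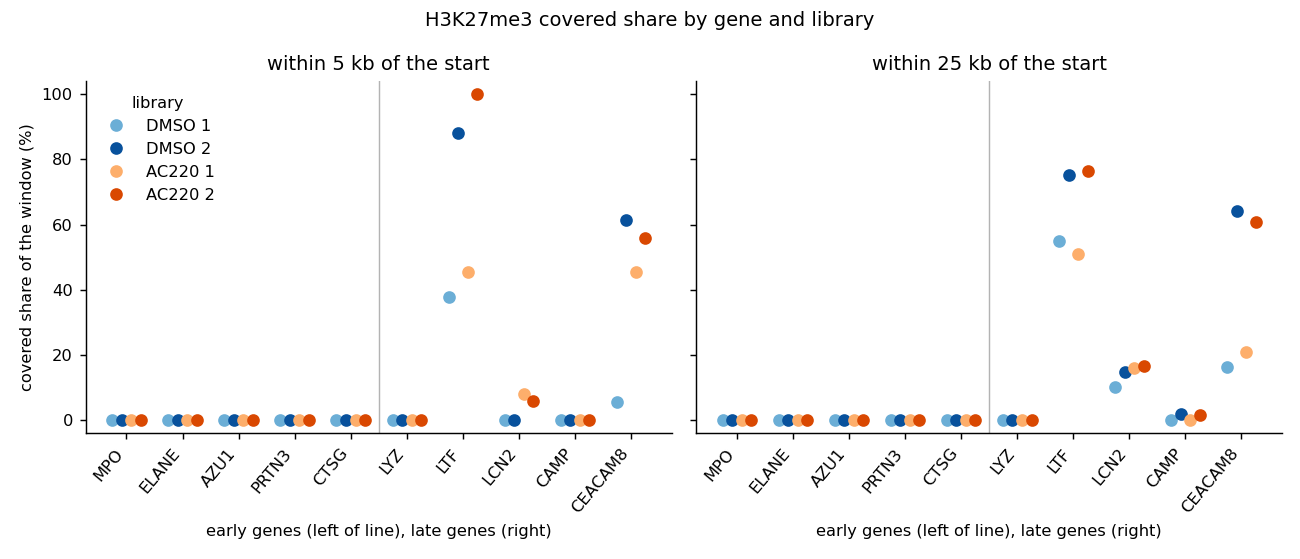
Covered share (%) of the windows within 5 kb and within 25 kb of each start, 1 point per library, with DMSO in blue and AC220 in orange and the darker shade for replicate number 2. LTF and CEACAM8 separate by replicate number within 25 kb, and LCN2 within 5 kb is above 0% in the AC220 libraries alone.

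No common direction with AC220 was found over the members. By the rule that AC220 differ from DMSO by at least 5 percentage points the same way in both replicate numbers, 0 of 10 members were lower within 25 kb (8.15% of all 50 kb windows and 13.9% of those with a peak in any list were) and 0 were higher (0.512% and 0.875%). Of the 4 members with a covered base in this window, the exact permutation test gave p = 0.333 for LCN2 and p = 1 for LTF, CAMP and CEACAM8, and none can pass a threshold of 0.05 in this design. Applied to 5 kb after the data had been seen, the rule called LTF and LCN2 higher, 2 of 10 members (1.48% of all 10 kb windows and 3.6% of those with a peak), and none lower (6.86% and 16.7%). The 2 calls have the limits given above for each gene, and at 10 points neither was called.

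Late granule genes had a higher median coverage than early ones within 25 kb in each library, but within 5 kb in the AC220 libraries alone. The late median within 5 kb was 0% in both DMSO lists, 7.89% in AC220 1 and 6% in AC220 2, and the early median 0%. These AC220 medians are the values of LCN2 alone, from its short and weak near peaks. At a -log10 q of at least 2, LCN2 was at 0% within 5 kb in every list. Within 25 kb the early median was 0% in every library. The late median was 10.1% in DMSO 1, 14.8% in DMSO 2, 16% in AC220 1 and 16.6% in AC220 2, which are the values of LCN2. The late genes ranged from 0% (LYZ) to 55%, 75.3%, 51% and 76.4% (LTF) in the same order. The medians over all 10 members were 0% in every library, and those over all 50 kb windows 0% in DMSO 1 and AC220 1, 2.98% in DMSO 2 and 1.65% in AC220 2. At a -log10 q of at least 2 the contrast within 25 kb was 0 in DMSO 1 and AC220 1, and with all lists trimmed to the shortest it was 0 in DMSO 2 and AC220 2. It rests on 3 of 5 late genes, was not tested because genes are not replicates, and turned round at 100 kb. There the late minus early difference was -3.41 points in DMSO 1, -5.03 in DMSO 2, -1.86 in AC220 1 and -6.12 in AC220 2. At this width 4 of 5 early genes had a covered base in the lists numbered 1 and 5 of 5 in those numbered 2. In each library the early median was a value of the cluster of AZU1, PRTN3 and ELANE, whose windows overlap and are not separate observations. MPO and CTSG, at 0% to 1.75%, lay below the late median in each library.

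**Figure D5:**
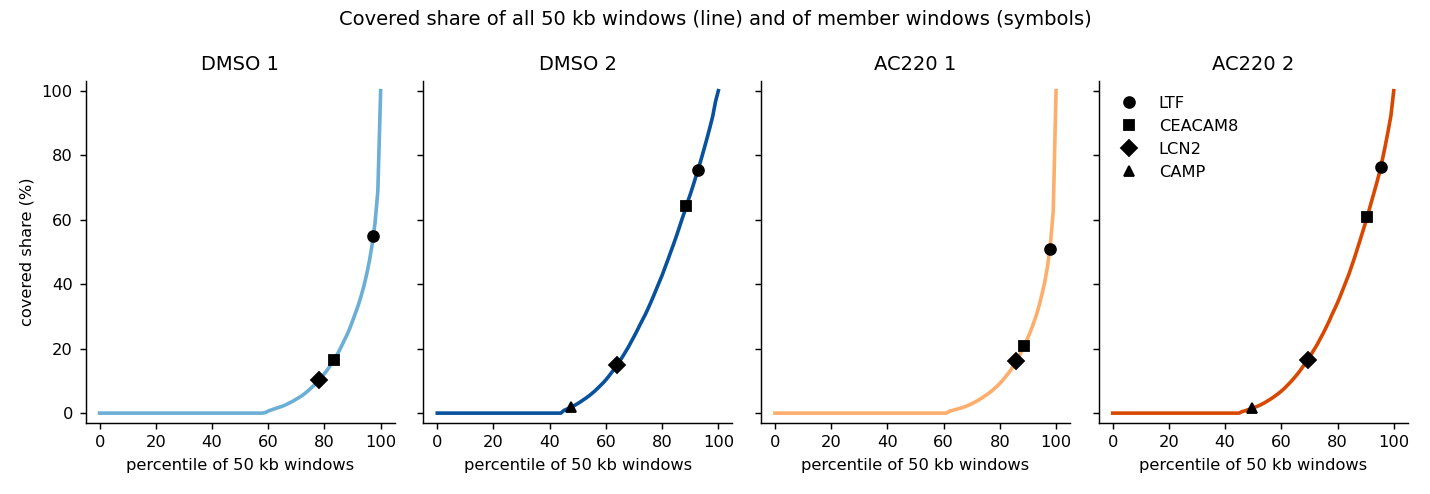
Covered share (%) of all 50 kb windows of the genome by percentile (line) and of the members' windows (symbols), 1 panel per library; members at 0% are not drawn. LTF stands above at least 92.7% of windows in each library, CEACAM8 above at least 83.4% and LCN2 above at least 63.9%.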

How the data were processed

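H3K27me3 libraries of MOLM14 cells (2 DMSO, 2 AC220) were grouped by sample title. The submitters' processing notes list MACS2 2.1 and BWA 0.7.10-r789, with no settings. Genome build, and whether inputs or Drosophila reads entered the calls, are not given in the sources used here; peak ends lay within GRCh37 chromosome lengths (circlize 0.4.16). The authors deposited 1 broad peak list per library, so peaks were not called on pooled samples. Per the file columns the deposited values of a peak are its fold enrichment (a ratio within its own library), -log10 p, -log10 q and a score, which equals the -log10 q multiplied by 10 and cut to a whole number for at least 99.99% of peaks. They are the authors' values and were used only within a list. Read depth is unknown, so no interval is given.

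Python 3.11.15 with pandas 2.3.3 and numpy 2.4.6 was used to count covered bases over chromosomes 1 to 22 and X, in windows of 10 and 50 kb around GRCh37 starts given to the nearest kb, where 1 bp of overlap counted. Treatments were compared per gene over the 6 assignments of libraries (two-sided exact permutation), adjusted (Benjamini-Hochberg) over the tiled windows with a peak and the members. The planned adjustment over the members alone was not used. The members, lists and groups were chosen with earlier results of these data known, and all 10 members are named. Alternatives were other widths, a -log10 q of at least 2, trimmed lists, starts moved by 1 kb, joined peaks, left-out libraries and the replicate block. Values of other granule genes were not analysed here, since RefSeq genes of GRCh38.p14, another build, served for gene order only. Figures were drawn with matplotlib 3.10.9.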

Additional observations from a re-analysis of the deposited data

How the results depend on the processing

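MPO, ELANE, AZU1, PRTN3, CTSG and LYZ stayed at 0% within 5 and 25 kb in all 4 lists under each setting tried, except that AZU1 was reached when 25 kb became 50 kb. The other settings bear on LTF, LCN2, CAMP and CEACAM8, and where a value turned or moved the cause was not tested beyond what the setting itself removes. Joining peaks up to 1 kb apart, or asking for 500 bp of overlap, changed no direction and no count by over 1.5 times. Without a replicate number, 0 to 1 members (LCN2) were higher within 25 kb by 5 points, 0 to 1 (CEACAM8) lower within 5 kb, and 2 to 3 higher within 5 kb; with any difference counted, 1 member (LCN2) was higher within 25 kb. Leaving out 1 library at a time changed the sign of the mean difference for LTF, CAMP and CEACAM8. Within 25 kb it ran from -14.2 to 11.3 points for LTF, -1.17 to 0.732 for CAMP and -23.4 to 24.5 for CEACAM8. Within 5 kb it ran from -17.6 to 37.1 for LTF and -10.7 to 45.0 for CEACAM8. Each value sets 1 library against the mean of both replicate numbers, whose lists differ in length, so these signs cannot decide a direction. Within matched numbers, AC220 minus DMSO was 7.68 and 11.8 points for LTF within 5 kb. It took opposite signs by number for LTF within 25 kb and for CEACAM8 in both windows. LCN2 was higher with AC220 without any 1 library (1.45 to 6.18 points within 25 kb, 6 to 7.89 within 5 kb), but its groups overlapped at a -log10 q of 2 (0.254 points within 25 kb, exact permutation p = 1) and with all lists trimmed or those numbered 2 trimmed (p = 1 in both windows, exact).

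Members higher within 5 kb in both numbers (2) became 0 at 10 points, 1 with a 10 kb half-width (CEACAM8 in place of LTF and LCN2), 1 at a -log10 q of 2 (LTF) and 1 with starts 1 kb higher (LCN2); with all lists, or those numbered 2, trimmed, it stayed 2 but with CEACAM8 in place of LCN2. With half-widths of 10 and 50 kb, 5 members had a peak in DMSO 1 and 5 in AC220 1, the late minus early medians were 5.06 (DMSO 1), 7.42 (DMSO 2), 8.02 (AC220 1) and 8.28 (AC220 2), and the differences were 0.528 for CAMP, -4.14 for CEACAM8 and, near the start, -1.15 for LTF. At a -log10 q of at least 2, 1 member was left within 25 kb in DMSO 1 (CEACAM8) and 1 in AC220 1 (LTF), and within 5 kb 0 and 1; the late minus early median was 0 in both and 15.4 in AC220 2, and the differences were 12 for LTF and -10.1 (25 kb) and -5.62 (5 kb) for CEACAM8. With all lists trimmed to the length of the shortest, DMSO 2 and AC220 2 had 2 members each within 25 kb and DMSO 2 had 1 within 5 kb; late minus early was 3.33 in DMSO 1 and 0 in DMSO 2 and AC220 2, with 0.223 for LTF and -3.89 for CEACAM8. Trimming DMSO lists to their AC220 list gave 3.33 in DMSO 1, 0.223 for LTF, 6.41 for CEACAM8 and 7.21 for LCN2 within 25 kb. Trimming the lists numbered 2 to those numbered 1, chosen after seeing the data, gave 2 members each within 25 kb, 1 within 5 kb in DMSO 2, late minus early of 0 in both, and -8.71 for CEACAM8. Starts 1 kb higher gave 0.578 for CAMP and starts inside a peak in 0 members in DMSO 1, 1 in AC220 1 and 1 in AC220 2; starts 1 kb lower gave 2 in DMSO 2 and 1 in AC220 2.

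With the replicate number as a replicate block the mean differences are unchanged by construction (3.82 points for LCN2 within 25 kb). The exact permutation p was 0.5 for LCN2 in both windows and for LTF within 5 kb, the smallest that 4 assignments allow. The labels do not say that numbers pair the libraries. Deviations of DMSO 1 and of AC220 1 from their treatment means correlated at 0.842 over 35541 windows of 50 kb with a peak. With 2 libraries per treatment, the libraries numbered 2 give the same value by construction. As both lists numbered 2 were the longer ones, this value does not show that numbers pair the libraries. Read depth is unknown, so its part in the longer lists numbered 2 was not tested.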
